A study of Homo sapiens with 15 samples.

Results

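The baseline transcriptome described here is that of SNB19 cells carrying an empty vector. SNB19 is an established human glioblastoma line. The members are the 3 libraries whose titles and vector labels name the empty vector (EV), 3 of 15 in the series, and were chosen by those labels alone. The series has 5 groups of 3 libraries, and the other 4 carry ZBTB18 constructs, a full-length form, a short form and a mutant of each, that are not set against EV here. The EV cells were transduced with lentiviral pCHMWS holding no insert, grown in DMEM with 10% FBS, and left otherwise untreated according to the labels. Poly(A) RNA was turned into PCR-amplified cDNA and read on an Oxford Nanopore instrument as long reads. EV therefore stands for the transduced line and not for untransduced cells, and the labels do not say whether the 3 libraries came from separate cultures. The spread given below may thus be technical, biological or both.

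Glioblastomas are commonly sorted by their transcripts into states that resemble astrocytes, oligodendrocyte progenitors, neural progenitors or mesenchymal cells. The mesenchymal state is marked by annexins, S100 proteins, galectins, CD44, vimentin and secreted matrix and cytokine genes. Lines kept in serum commonly lose the glial markers of the tumour and keep mesenchymal ones.

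The libraries held 1930245 counts in EV replicate 1, 1371908 in EV replicate 2 and 1274474 in EV replicate 3. CPM, counts per 1e6, is a gene's share of its library's total. The table gave 18485 gene symbols, and 15236 had a count in at least 1 EV library, 3249 in none. Symbols of 13 mRNAs encoded by mitochondrial DNA and of 27 cytosolic ribosomal proteins were looked for and are not analysed here, so CPM is a share of a total that does not hold those transcripts. At least 10 counts in every EV library were reached by 4923 genes. A floor of 3 counts corresponds to 1.55, 2.19 and 2.35 CPM in EV replicates 1, 2 and 3. A gene at 0 in all 3 libraries could lie at up to 0.656 CPM by counting error alone. ZBTB18 itself, a zinc finger repressor studied as a brake on the mesenchymal state, was low without its constructs, at 7.25, 4.37 and 6.28 CPM in EV replicates 1, 2 and 3.

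The transcriptome was concentrated in a small number of genes. The most abundant 10 took 18.8 ± 3.07% of counts, the most abundant 20 took 25.4 ± 2.80% and the most abundant 100 took 45.7 ± 3.08% (SD, n = 3 libraries). The share of these 100 genes was 42.8% in EV replicate 1, 45.3% in EV replicate 2 and 48.9% in EV replicate 3. At the other end, 3612 genes averaged at least 20 CPM, 1175 at least 100 CPM, 159 at least 1000 CPM and 10 at least 10000 CPM. Of the 3612, 3505 were annotated as protein coding and carried 93.0% of all counts.

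The gene of highest mean CPM was PPIA (cyclophilin A, a peptidyl-prolyl isomerase of the cytosol), at chr7:44796680-44824564 of GRCh38. It was read at 38512, 27048 and 35029 CPM in EV replicates 1, 2 and 3, a mean of 33529.8 ± 5877 CPM (SD, n = 3). PPIA led the other genes in EV replicate 1, where the next, GAPDH, was at 24273 CPM. In EV replicate 2 the ferritin light chain gene FTL (chr19:48965301-48966878) stood above it at 38046 CPM, and in EV replicate 3 the thymosin beta-4 gene TMSB4X (chrX:12975108-12977227) stood above it at 43984 CPM. FTL, the light subunit of the iron store ferritin, was at 14201 and 15065 CPM in EV replicates 1 and 3. TMSB4X, which binds free actin, was at 14198 and 21534 CPM in EV replicates 1 and 2. The head of the ranking was thus not the same gene in any pair of libraries.

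On CPM, GAPDH, the glycolytic dehydrogenase, was the steadiest of the 5 most abundant genes. It had 24273, 24806 and 26156 CPM in EV replicates 1, 2 and 3 and a mean of 25078 ± 970.4 CPM. ANXA2, a calcium-dependent membrane-binding annexin, averaged 19549 ± 7013 CPM and was highest in EV replicate 3, at 27564 CPM. B2M, the invariant light chain of MHC class I, was at 7227, 15466 and 24509 CPM, so its highest and lowest libraries differed over 3-fold. S100A6, a small calcium-binding protein, was at 13184, 13760.4 and 11572 CPM and was close to even.

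Further genes of the 20 most abundant served protein synthesis, the cytoskeleton, glycolysis and nuclear functions. For protein synthesis they were EEF1A1 (the elongation factor that brings aminoacyl-tRNA, 11592 ± 905 CPM), RACK1 (a ribosome-bound scaffold, 10718 ± 1384 CPM) and NACA (a chaperone of nascent chains, 5429 ± 345 CPM). For the cytoskeleton they were MYL6 (a myosin light chain, 8922 ± 2147 CPM), TUBB (a beta-tubulin, 8407 ± 2142 CPM), TMSB10 (6250.2 ± 991 CPM) and ACTG1. ACTG1, cytoplasmic gamma-actin, was at 8850.2, 4411 and 3135 CPM in EV replicates 1, 2 and 3 and varied most of these. The glycolytic genes PKM and TPI1 averaged 8194 ± 2489.96 and 5127 ± 769 CPM. The histone variant gene H2AFZ averaged 6672 ± 269 CPM, the splicing factor gene SNRPD2 averaged 5835 ± 969 CPM, and SERF2 averaged 10243 ± 2970.1 CPM. SERF2 overlaps HYPK on the same strand, and reads could be split between them. PPIA, GAPDH, EEF1A1, FTL and others of the 20 have near-identical processed pseudogenes, and how reads shared with such copies were assigned is not given in the sources used here.

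**Figure D1:**
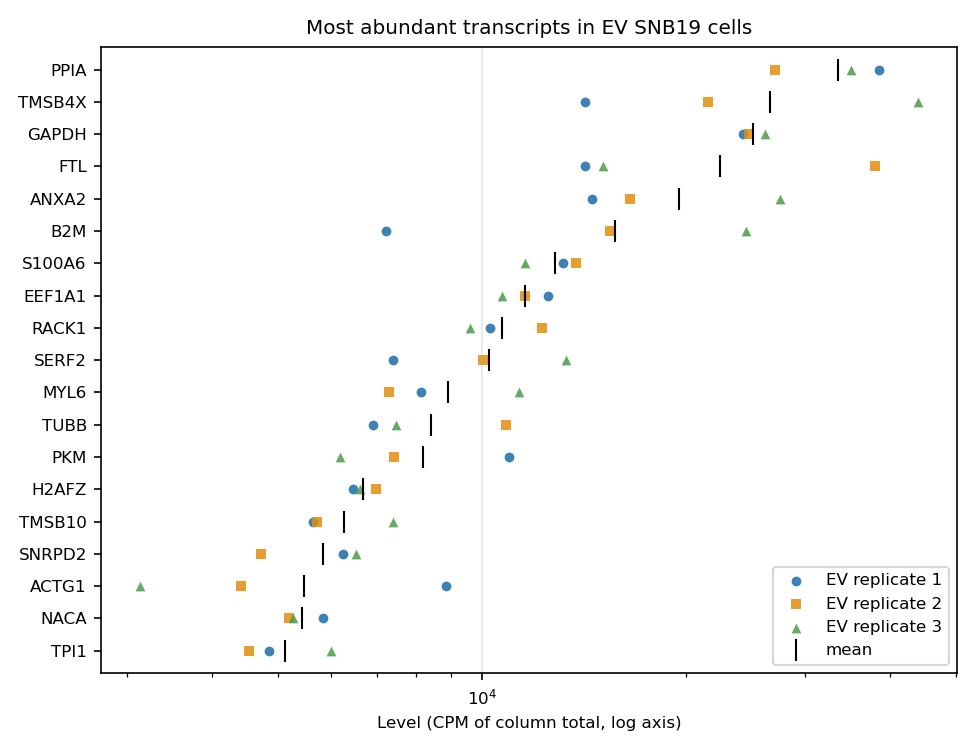
The 19 genes named among the 20 of highest mean level, one per line, with CPM on a log x axis, 1 point for each EV library and a tick at their mean. The 10 highest average over 10000 CPM, and B2M, TMSB4X and ACTG1 span the widest ranges.

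The order above is by CPM, which counts reads and is not corrected for length. Per kilobase of a representative GENCODE transcript FTL led with a mean of 25555 CPM per kilobase, followed by S100A6 at 19307, TMSB4X at 15612, PPIA at 14982 and GAPDH at 13375 CPM per kilobase. Of the 20 genes of highest mean CPM, 13 were also among the 20 highest per kilobase. Short transcripts were common at the head: the 100 most abundant had a median length of 1217.5 bases, and all genes of at least 20 CPM had a median of 2409 bases. Across 3587 of these genes with a transcript, mean CPM and length had a Spearman rho of -0.32 and mean CPM and GC content a rho of -0.01, across genes that are not independent replicates. Each library's own 20 most abundant genes shared 17, out of 24 that were among the 20 in any library. Of the 100 most abundant, 77 were shared out of 124.

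Of the mesenchymal genes, ANXA2 and S100A6 stood among the 20 most abundant. The list of mesenchymal glioma genes held 33 symbols, of which 32 were in the table, 21 averaged at least 20 CPM, 10 were read below that and PDPN was at 0. Summed over the list, the level was 38892.5, 38554.3 and 50795.9 CPM in EV replicates 1, 2 and 3, a mean of 42747.6 ± 6972 CPM. Most of that sum came from ANXA2 and S100A6. Lower in CPM were ANXA1, an annexin known as a mediator of inflammation resolution, with 1992, 2047 and 3349.6 CPM, and the galectin gene LGALS1, with 2460.3, 1300.4 and 1991 CPM. Neither had a library more than about 2-fold from another.

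Further members followed. S100A11 averaged 1359 ± 276 CPM, the actin-binding TAGLN2 970.00 ± 326 CPM and the caveola coat gene CAV1 643 ± 323 CPM. Vimentin (VIM), the intermediate filament protein of mesenchymal cells, was at 539.8, 334 and 692 CPM in EV replicates 1, 2 and 3, or 279 CPM per kilobase on average. S100A4, TIMP1 (an inhibitor of matrix metalloproteinases) and SPARC (a secreted matrix-binding protein) averaged 397 ± 177, 381 ± 115 and 307 ± 203 CPM, and each was highest in EV replicate 3.

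Several genes often used to mark the mesenchymal state were low. CHI3L1, a secreted chitinase-like glycoprotein, had 0, 5 and 20 counts, or 0, 3.64 and 15.7 CPM. The receptor tyrosine kinase gene MET averaged 6.46 ± 4.92 CPM, fibronectin (FN1) 13.8 ± 12 CPM and the cytokine gene IL6 11.7 ± 2.55 CPM. LOX was at or under 1 count in every library, and MYL9 is not analysed here. Within the list, ANXA2, S100A6, ANXA1 and LGALS1 were thus abundant, and CHI3L1, MET and FN1 were low. No other cells are set beside these libraries, so the levels do not assign them to a state.

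Of the 21 mesenchymal genes of at least 20 CPM, 6 (28.6%) differed at least 4-fold between their highest and lowest library on CPM plus a pseudocount of 2. That rule called 337 of 3612 genes, or 9.33%, in the whole table. It called 17.7% of the 1196 genes richest in GC, those of 50.64% or more, and the 21 had a median GC content of 53.85%. CCL2, a monocyte-attracting chemokine, was at 85.5, 227 and 1366 CPM in EV replicates 1, 2 and 3, a 15.6-fold range on that scale. CD44, the hyaluronan receptor, was at 468, 105 and 48.6 CPM, a 9.29-fold range. CCL2 was thus highest in EV replicate 3, where CD44 was lowest.

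The other 4 variable mesenchymal genes were highest in EV replicate 1. Of those named here, the urokinase receptor gene PLAUR was at 261, 47.4 and 49.4 CPM. S100A10, the annexin A2 partner, was at 119, 26.2 and 40.8 CPM, and EMP3 at 57.5, 11.7 and 7.85 CPM. EV replicates 2 and 3 lay closer to each other than to EV replicate 1 in these 3.

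Regulators of the mesenchymal state were low. Of 24 symbols fixed, 22 were in the table and 3 averaged at least 20 CPM, and the list summed to 131, 109 and 322 CPM in EV replicates 1, 2 and 3, or 187 ± 117 CPM. Without EV replicate 3 the mean sum was 119.9 CPM. RUNX2, a transcription factor best known in bone, was at 11.4, 10.9 and 118 CPM, FOSL2, an AP-1 subunit, at 28, 26.2 and 78.5 CPM, and STAT3 at 24.9, 11.7 and 36.1 CPM in EV replicates 1, 2 and 3. These 3 were each highest in EV replicate 3, and RUNX2 passed the 4-fold rule. CEBPB, a regulator named for the mesenchymal state of glioma beside STAT3, averaged 4.42 ± 1.11 CPM. CEBPD had no count, SNAI2 at most 1 count a library, and ZEB1 averaged 13.7 ± 11 CPM.

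**Figure D2:**
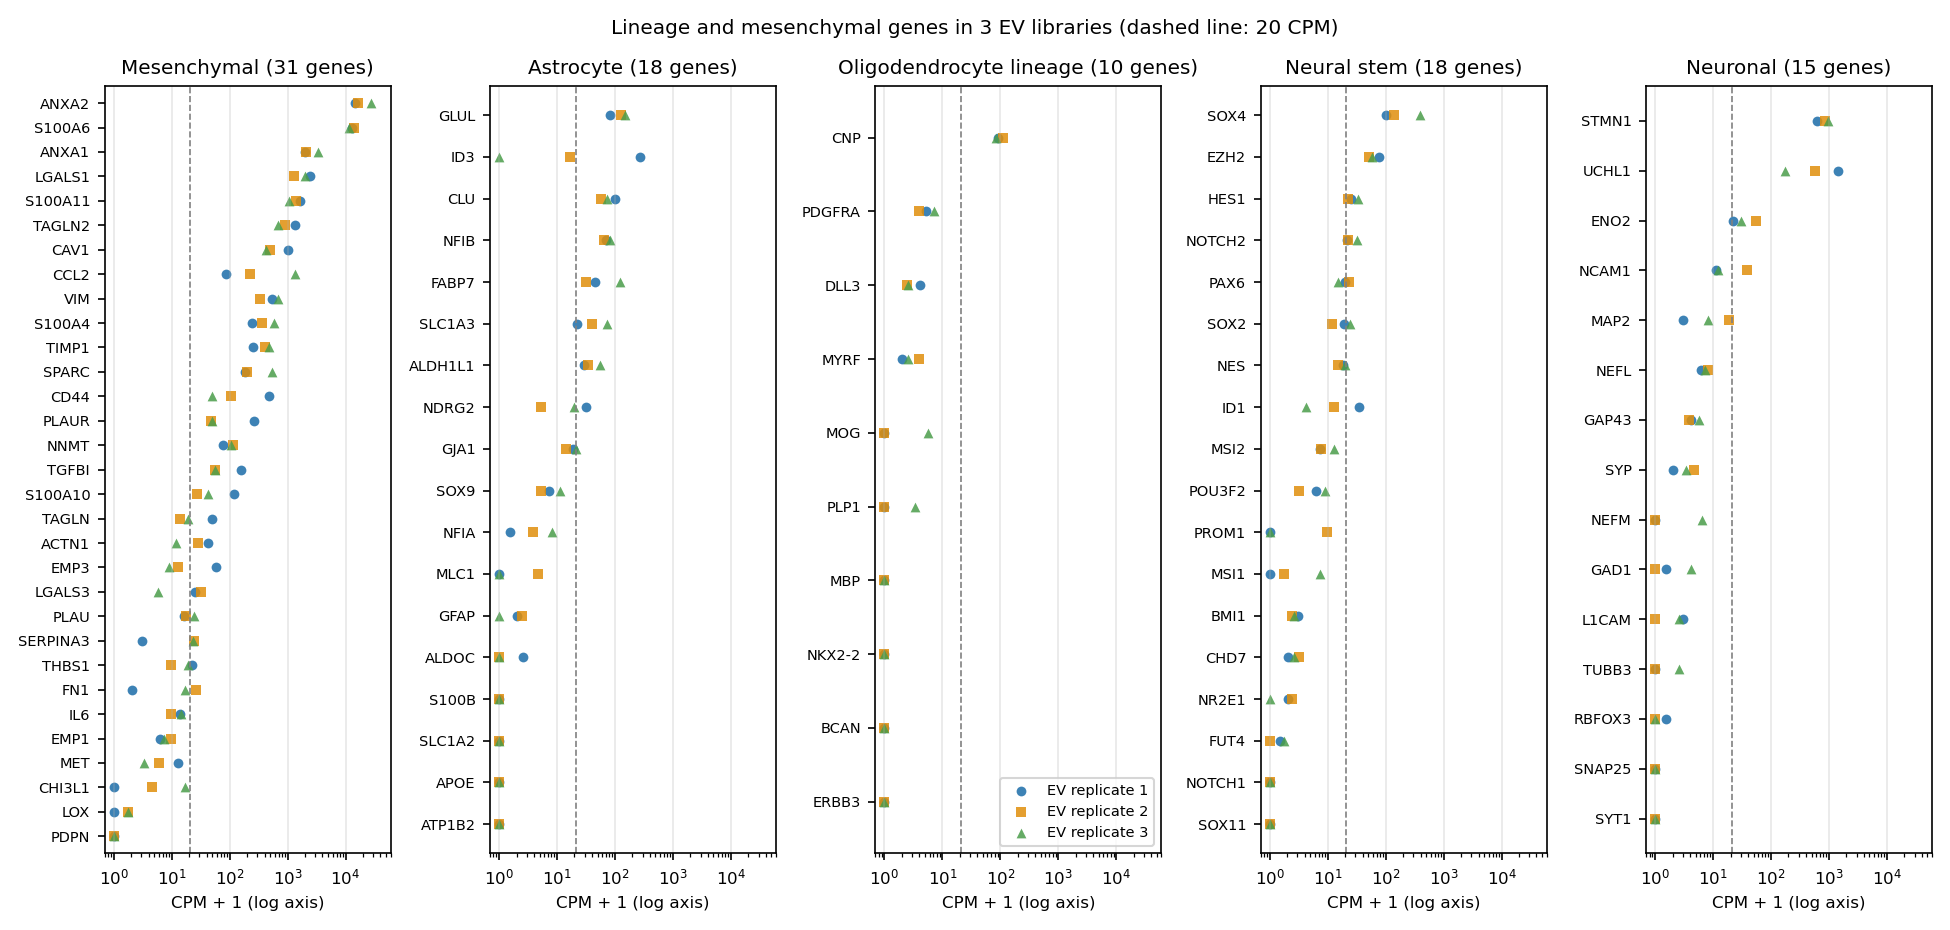
Members of the mesenchymal and 4 lineage lists, one per line, with CPM plus 1 on a log x axis and 1 point for each EV library. The dashed line marks 20 CPM, which, of the genes shown, 20 of 31 mesenchymal, 7 of 18 astrocyte, 1 of 10 oligodendrocyte, 4 of 18 neural stem and 3 of 15 neuronal genes pass.

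Astrocyte markers were split: several, GFAP among them, were near or at 0, and others, such as ALDH1L1 and SLC1A3, averaged at least 20 CPM. GFAP, the astrocyte intermediate filament protein, had 2, 2 and 0 counts in EV replicates 1, 2 and 3. S100B, the glutamate transporter gene SLC1A2, APOE and ATP1B2 had none, and AQP4 and HEPACAM are not analysed here. Of the 18 astrocyte genes read or looked up, 7 averaged at least 20 CPM, and the list summed to 553 ± 143 CPM. Those read were GLUL (glutamine synthetase, 117 ± 33.1 CPM), CLU (clusterin, 75.1 ± 21.5 CPM), the transcription factor gene NFIB (70.2 ± 8.90 CPM) and the folate enzyme gene ALDH1L1 (39.0 ± 14.0 CPM). FABP7, the brain fatty acid binding protein of radial glia, was at 43.5, 30.6 and 122 CPM, and SLC1A3, a glial glutamate transporter, at 21.2, 39.4 and 73.0 CPM. Both were highest in EV replicate 3. The other gene past 20 CPM, ID3, was highest in EV replicate 1 and was the most variable gene of all, as given further on.

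The oligodendrocyte lineage was represented above 20 CPM by CNP alone, an enzyme of myelinating cells that other cells also express, at 94.8 ± 15.6 CPM. PDGFRA, the receptor of oligodendrocyte progenitors, had 8, 4 and 8 counts. MBP, NKX2-2, BCAN and ERBB3 had none, and 8 of the 18 symbols, OLIG1, OLIG2 and SOX10 among them, are not analysed here. The 10 genes in the table summed to 105 ± 12.2 CPM.

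Neural stem genes were mostly low. SOX2 averaged 17.5 ± 6.32 CPM, the intermediate filament gene NES (nestin) 16.8 ± 2.60 CPM and PAX6 18.2 ± 3.89 CPM, all just under 20 CPM. Of the 18 genes looked up 4 passed it. The list summed to 323, 313 and 599 CPM in EV replicates 1, 2 and 3, or 412 ± 162 CPM. SOX4, a transcription factor of progenitors and many tumours, was at 99.0, 139 and 389 CPM and highest in EV replicate 3. EZH2, the histone methyltransferase of Polycomb, averaged 61.2 ± 13.4 CPM, HES1, a target of Notch, 26.0 ± 6.19 CPM and NOTCH2 24.0 ± 5.75 CPM. PROM1 (CD133) had 0, 12 and 0 counts, and its counts over all 15 libraries share a divisor of 6, so these 12 may not be 12 reads. NOTCH1 and SOX11 had no count.

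Neuronal genes were carried by 2 members that dividing and transformed cells also express. STMN1, a microtubule destabiliser, averaged 818 ± 182 CPM. UCHL1, a ubiquitin hydrolase, was at 1432, 568 and 175 CPM in EV replicates 1, 2 and 3, an 8.11-fold range. RBFOX3, the neuronal splicing factor NeuN, had 1, 0 and 0 counts, and SNAP25 and SYT1, both of the synaptic release machinery, had none. The 15 genes in the table summed to 1624 ± 441 CPM.

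Markers of other cell types that a culture could hold were low. The 6 immune genes in the table summed to 16.6, 13.8 and 10.98 CPM, mostly CD68, with TYROBP and ITGAM at 0. The 6 endothelial genes summed to 12.4, 9.48 and 20.4 CPM, mostly KDR, with FLT1 and ERG at 0. The 7 epithelial genes summed to 47.7, 120.3 and 102.0 CPM, and MUC1, a membrane mucin, gave most of it with 15.5, 101 and 56.5 CPM, and the epithelial cadherin gene CDH1 averaged 0.243 CPM. The 10 pericyte and fibroblast genes summed to 135, 78.7 and 153 CPM, led by the collagen gene COL1A2 at 67.4 ± 29 CPM, with COL3A1 and PDGFRB at 0. In such bulk samples, fewer cells of a type and less RNA per cell cannot be told apart.

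Genes altered in gliomas had the most even summed level of the lineage and tumour lists. The 24 in the table summed to 1241, 1184 and 1189.5 CPM in EV replicates 1, 2 and 3. Of the 11 of at least 20 CPM, 0 passed the 4-fold rule, which called 9.33% of all genes. So few genes cannot set the list apart from that share, and single members were less even than the sum. H3F3A, encoding histone H3.3, averaged 422 ± 125 CPM and MTAP, of the methionine salvage pathway, 123 ± 20.9 CPM. MDM4 and MDM2, both amplified in some gliomas, averaged 99.9 ± 28.6 and 27.1 ± 7.86 CPM, and IDH1 95.1 ± 40.8 CPM. EGFR, the receptor often amplified in glioblastoma, was at 8.29, 7.29 and 8.63 CPM. NF1, whose loss marks many mesenchymal tumours, averaged 12.6 ± 1.06 CPM and RB1 1.09 ± 0.340 CPM. PDGFRB and FGFR3 had no count. CDKN2A, CDKN2B, MGMT and TERT are among 6 symbols not analysed here.

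Housekeeping lists had the highest sums of CPM. The cytoskeleton list, led by TMSB4X, summed to 71048 ± 16553 CPM, the list of translation factors to 52818.5 ± 6601 CPM, glycolysis to 46343 ± 3713 CPM and nuclear genes of oxidative phosphorylation to 46009.6 ± 5210 CPM (SD, n = 3). Proliferation genes summed to 13684 ± 580.4 CPM and proteasome subunits to 13559 ± 1223 CPM. The mitotic genes CCNB1 (cyclin B1) and CDK1 averaged 1016 ± 162 and 901 ± 219 CPM, and MKI67, the source of the Ki-67 antigen, 39.6 ± 17.9 CPM. LDHA was read low for a glycolytic gene, at 42.3 ± 5.13 CPM or 17.5 CPM per kilobase, with PKM at 3016 and ALDOA at 1559 CPM per kilobase. How reads shared with similar sequences were assigned is not known, so the LDHA level is uncertain.

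Variable genes were found inside these abundant lists too. The aldolase gene ALDOA was at 4794, 1705 and 996 CPM in EV replicates 1, 2 and 3, EIF1, which selects the start codon, at 2355, 681 and 185 CPM, and CFL1 (cofilin, which severs actin filaments) at 910.2, 473 and 217 CPM. The tubulin gene TUBA1A ran the other way, at 459, 958 and 2894 CPM. TK1, the thymidine kinase of S phase, was at 237, 40.1 and 22 CPM. Alpha-tubulin genes are near-identical to each other, so the TUBA1A values are uncertain.

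The variable genes ranged widely in GC content, and sequences are shown to make that range visible. Below are coding bases 121 to 180, counted from the A of the start codon, of 4 of the 20 most variable genes, 2 of the richest and 2 of the poorest in GC among those whose counts share no divisor. They are read from the GENCODE release 29 transcripts of GRCh38, 5′ to 3′ in the coding sense, with G and C in capitals.
NDUFS7: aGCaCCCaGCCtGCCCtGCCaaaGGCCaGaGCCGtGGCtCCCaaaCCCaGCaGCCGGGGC
GPX4: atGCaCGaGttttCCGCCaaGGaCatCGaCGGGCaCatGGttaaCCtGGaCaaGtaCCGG
MFSD14A: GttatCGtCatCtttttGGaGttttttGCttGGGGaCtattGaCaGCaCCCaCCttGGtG
CXCL8: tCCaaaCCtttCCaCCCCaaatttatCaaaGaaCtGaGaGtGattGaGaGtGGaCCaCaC
These stretches hold 43, 33, 27 and 26 G or C in 60 bases, in the order of the lines. The whole transcripts have a GC content of 66.5% for NDUFS7 (chr19:1383527-1395589, plus strand), 63.0% for GPX4 (chr19:1103926-1106791, plus strand), 40.3% for MFSD14A (chr1:100038097-100083377, plus strand) and 33.4% for CXCL8 (chr4:73740506-73743716, plus strand). The first pair were highest in EV replicate 1 and the second pair in EV replicate 2. NDUFS7, GPX4 and also CXCL8 had no count in EV replicate 3.

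The 3 libraries differed by more than counting error for most genes. Among the 3612 genes of at least 20 CPM the median ratio of highest to lowest library was 1.72, 1234 (34.2%) lay within 1.5-fold and 1353 (37.5%) reached 2-fold. The chi-square of a gene's counts against equal shares of the totals had a mean of 47.6 per degree of freedom, where counting error alone gives a mean of about 1. The median was 9.43, and 346 genes (9.58%) were at or under 1. No library could thus be taken for another deposited again. Pearson's r of log2(CPM + 2) across these genes, which are not independent replicates, was 0.91 between EV replicates 3 and 2, 0.88 between EV replicates 2 and 1 and 0.83 between EV replicates 3 and 1.

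The 4-fold rule called 337 genes, and the call went mainly with EV replicate 1. It was the highest library in 233 (6.45% of the 3612), EV replicate 2 in 64 (1.77%) and EV replicate 3 in 40 (1.11%). EV replicate 3 was the lowest library in 231. In 199 of the 337 (59.1%) EV replicate 1 was highest, EV replicate 2 between and EV replicate 3 lowest, and in 30 (8.90%) that order was turned round. EV replicate 1 stood at least 4-fold above both others for 53 genes, EV replicate 2 for 6 and EV replicate 3 for 8. The variable share was 11.9% at 20 to 50 CPM and 3.14% at 1000 CPM and above. EV replicate 1 was also the deepest library and EV replicate 3 the shallowest, and the part of depth was not tested. Leaving out EV replicate 1 left 72 variable genes, leaving out EV replicate 3 left 127 and leaving out EV replicate 2 left 277.

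The most variable gene was ID3, an inhibitor of basic helix-loop-helix transcription factors, with 512, 22 and 0 counts, or 265, 16.0 and 0 CPM in EV replicates 1, 2 and 3. Its paralogue ID2 was at 172, 5.83 and 3.14 CPM, and ID1, looked up after their values were seen, at 33.7, 11.7 and 3.14 CPM. These 3 genes had EV replicate 1 highest and EV replicate 3 lowest, and ID4 was at 0 in all 3 libraries. RNF130, an E3 ubiquitin ligase, was nearly absent from EV replicate 1, with 8.29 CPM there, 527 CPM in EV replicate 2 and 727 CPM in EV replicate 3. CLTC, the clathrin heavy chain, was at 90.7, 126 and 1920 CPM, so EV replicate 3 alone stood high. PTRH2, which overlaps CLTC on the opposite strand, was at 203, 270.4 and 263 CPM and did not share that height.

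EV replicate 1 was the highest library for 12 of the 20 most variable genes, and 4 of them are described first. NDUFS7, a subunit of respiratory complex I whose sequence is shown above, was at 115, 13.1 and 0 CPM, and NDUFV1, another subunit of complex I, at 78.7, 2.92 and 3.92 CPM. MRPL55, a mitochondrial ribosomal protein gene, was at 90.1, 33.5 and 0.785 CPM. GPX4, a selenoprotein that reduces lipid peroxides, was at 62.2, 30.6 and 0 CPM. Of the list of nuclear oxidative phosphorylation genes, 23 of 35 members of at least 20 CPM were highest in EV replicate 3 and 10 in EV replicate 1. Over all 3612 genes, 927 were highest in EV replicate 3 and 1513 in EV replicate 1. The list's median of log2(CPM + 2) minus the gene's mean was -0.11, -0.07 and 0.14 in EV replicates 1, 2 and 3. With the trend on GC content described below subtracted, the list's median was -0.22, -0.11 and 0.32.

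Genes of other functions, several of them nuclear, were also highest in EV replicate 1. WDR46, of ribosome biogenesis, was at 93.3, 48.1 and 0 CPM, WDR74 at 57.0, 0.729 and 10.2 CPM, the heat shock factor gene HSF1 at 57.5, 6.56 and 0 CPM and LSM7, of the Sm-like complex that binds U6 RNA, at 97.9, 13.1 and 3.14 CPM. C19orf48 was at 284, 21.9 and 12.6 CPM. GLIS2 was at 47.7, 0 and 12.6 CPM, but its counts over all 15 libraries share a divisor of 4, and the overlapping PAM16 was at 141, 30.6 and 7.85 CPM. In each of these 6 the other libraries lay at under 50 CPM.

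The remaining genes of the 20 were highest in EV replicate 2 or 3. CXCL8 (interleukin-8, a neutrophil-attracting chemokine) was at 16.6, 72.2 and 0 CPM in EV replicates 1, 2 and 3, MFSD14A, a membrane transporter family gene, at 2.07, 62.0 and 3.14 CPM and SLC35C2, of the nucleotide sugar transporter family, at 18.1, 53.2 and 0.785 CPM. STK26, a kinase of the germinal centre family, was at 9.33, 164 and 2.35 CPM, with counts that share a divisor of 3. IFITM1, an interferon-induced membrane protein that restricts virus entry, was at 0, 12.4 and 106 CPM, and IFITM2 at 3.63, 35.7 and 151 CPM. These last 2 overlap on the same strand and are near-identical, so the split between them is uncertain.

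**Figure D3:**
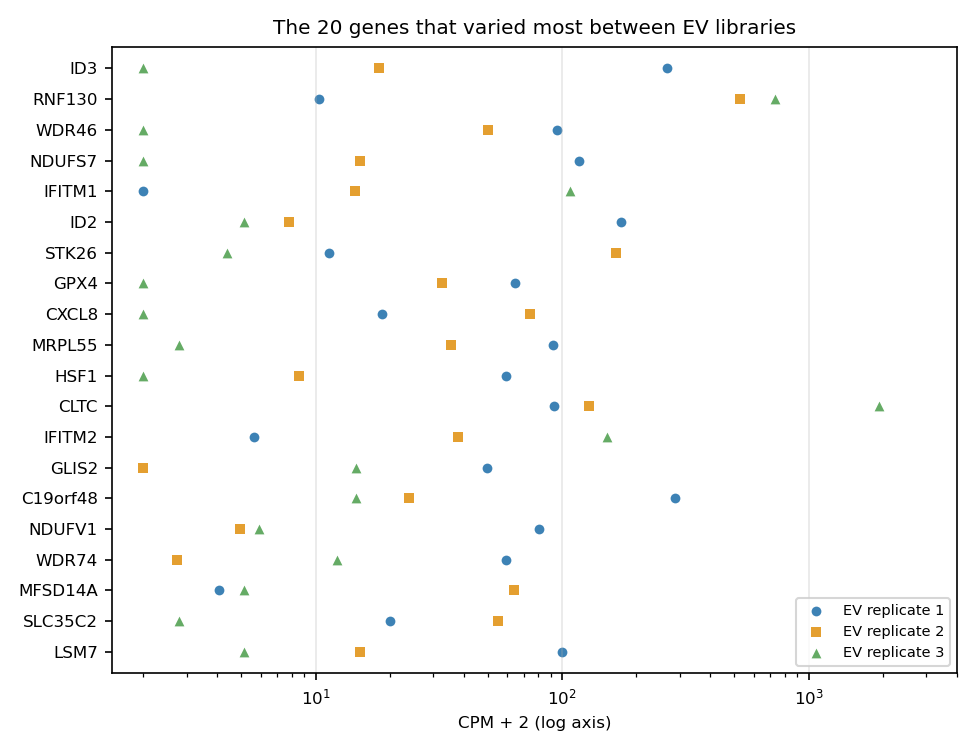
The 20 most variable genes, by SD of log2(CPM + 2), among those of at least 20 CPM on average, with CPM plus 2 on a log x axis and 1 point for each EV library. ID3, at 265, 16.0 and 0 CPM, is the widest, and EV replicate 1 is the highest point in most lines.

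At the even end, 10 genes of at least 200 CPM differed from 1.01-fold to 1.05-fold between libraries. The deubiquitinase gene OTUB1 was at 374, 368 and 368 CPM, COX4I1, of cytochrome c oxidase, at 3054, 3150.4 and 3082 CPM and XRCC6, the Ku70 subunit of DNA end joining, at 1193, 1136 and 1153 CPM. SAP30BP, NOP10, NDUFC2, TMEM208, VBP1, MRPL48 and AC012314.8 completed them, and the last had no match in the annotation. Their means ran from 224 to 3095 CPM.

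GC content of the transcript moved with the variability. Variable genes had a median GC content of 53.6%, and all genes of at least 20 CPM a median of 46.4%. Those highest in EV replicate 1 had 56.2% and a median length of 1661 bases, those highest in EV replicate 2 had 46.5% and 3329.5 bases, and those highest in EV replicate 3 had 47.6% and 3176 bases. Among the 1196 genes richest in GC the variable share was 17.7%, among the 1193 in the middle 5.45% and among the 1198 poorest 5.01%. Among the 359 richest it was 29.5%, or 106 genes.

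The shift was seen across genes and not in the called ones alone. For the 359 GC-richest genes the median difference of log2(CPM + 2) from the gene's own mean was 0.53 in EV replicate 1, -0.02 in EV replicate 2 and -0.47 in EV replicate 3. For the 361 poorest it was -0.11, 0.13 and -0.03. After each library's smooth trend on GC was subtracted, an alternative chosen after the data were seen, 265 of 3587 genes (7.39%) passed the 4-fold rule, which need not be genes called without it. Genes described above as even on CPM spread more after that subtraction. Their highest minus lowest log2 level was then 0.99 for GAPDH, 0.97 for OTUB1, 0.58 for COX4I1 and 0.28 for XRCC6. PPIA, at 0.52, was then steadier than GAPDH. The part of GC content in any single gene's spread was not tested.

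**Figure D4:**
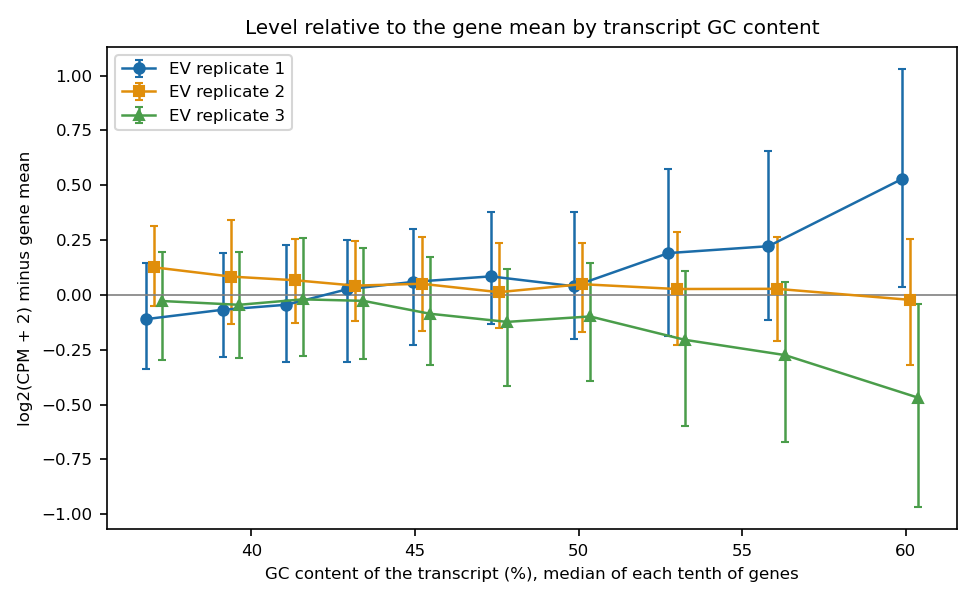
Median of log2(CPM + 2) minus the gene's mean over the 3 EV libraries, on the y axis, for 10 bins of genes by GC content of the transcript in percent, on the x axis, with bars from the 25th to the 75th percentile of genes. EV replicate 1 reaches 0.53 and EV replicate 3 falls to -0.47 in the richest bin, and EV replicate 2 stays near 0.

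Among genes of related function, several lists had a library of their own on top. The median over a list's members of the difference of log2(CPM + 2) from the gene's mean is given for each, beside 0.07, 0.05 and -0.11 for EV replicates 1, 2 and 3 over all 3612 genes. Of these, 1513 were highest in EV replicate 1, 1172 in EV replicate 2 and 927 in EV replicate 3. All counts of members below are of those of at least 20 CPM. The 21 mesenchymal genes had medians of 0.41, -0.29 and -0.30, and after the GC trend was subtracted 0.02, -0.33 and 0.04. The 12 highest in EV replicate 1 had a median GC content of 55.9%, and the 7 highest in EV replicate 3 had 47.3%.

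EV replicate 2 was highest for most members of the antioxidant, lysosome and ATF4 lists. Other lists of stress and degradation did not share this, with 6 of 24 proteasome genes, 4 of 15 ER chaperones and 2 of 12 heat shock genes highest in EV replicate 2. The antioxidant list summed to 25096, 55082 and 22919 CPM in EV replicates 1, 2 and 3, with 10 of 14 members highest in EV replicate 2 and medians of -0.10, 0.34 and -0.47. Most of that sum was FTL. FTH1, the ferritin heavy chain, was at 925, 2879.9 and 822 CPM, and the overlapping BEST1 on the opposite strand at 146, 375 and 128 CPM. AKR1C1, an aldo-keto reductase, was at 18.7, 114 and 14.9 CPM. NQO1, a quinone reductase, differed from these by being highest in EV replicate 1, at 1008, 625 and 235 CPM.

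The autophagy receptor gene SQSTM1 (p62) was at 1509.7, 5105 and 724 CPM in EV replicates 1, 2 and 3. MRNIP, which overlaps it on the opposite strand, was at 795, 2514 and 389.96 CPM, so reads of the pair cannot be told apart without strand. The lysosome list, which also holds SQSTM1, summed to 4127, 10839 and 4587 CPM, with 11 of 14 members highest in EV replicate 2 and medians of -0.22, 0.55 and -0.13. PSAP, the precursor of saposins, was at 662, 2000.1 and 1408 CPM, and the cholesterol-binding NPC2 at 355, 1271 and 838 CPM.

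Targets of ATF4, the transcription factor of amino acid shortage, were highest in EV replicate 2 in 8 of 11, with sums of 1273, 2752 and 1364 CPM and medians of -0.22, 0.57 and -0.25. DDIT3 (CHOP) was at 148, 406 and 84.7 CPM, the asparagine synthetase gene ASNS at 101, 477 and 353 CPM and the serine synthesis gene PHGDH at 168, 408 and 203 CPM. ATF4 itself was at 112, 107 and 47.1 CPM. After the GC trend was subtracted the medians for EV replicate 2 were 0.30 for the antioxidant, 0.54 for the lysosome and 0.49 for the ATF4 list.

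EV replicate 3 was highest for most members of the interferon, hypoxia, cholesterol and matrix lists. The list of interferon and MHC class I genes summed to 7868, 16561 and 25846 CPM in EV replicates 1, 2 and 3, mostly B2M. Of its 8 members 6 were highest in EV replicate 3 and none in EV replicate 1, with medians of -0.69, 0.13 and 0.55. The class I heavy chain gene HLA-E is outside the list and was highest in EV replicate 1. Its differences from its mean were 0.56, -0.47 and -0.08, so the count holds for the list and not for all class I genes. Class I heavy chain genes share much sequence, so reads can be split among them. The list had a median GC content of 56.5%, and its medians after the GC trend was subtracted were -0.91, 0.09 and 0.92, so they moved apart.

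The hypoxia list summed to 293, 564 and 697 CPM, with 7 of 8 members highest in EV replicate 3 and medians of -0.69, 0.24 and 0.66. BNIP3L, a mitophagy receptor, was at 24.3, 93.3 and 129 CPM, HIF1A at 34.7, 65.6 and 97.3 CPM and the vascular growth factor gene VEGFA at 7.77, 25.5 and 33.7 CPM. EV replicate 1 was the lowest for these 3. Metallothioneins were highest in EV replicate 3 in 3 of 3, and MT2A, the most abundant, was at 1030.4, 1399.5 and 1471 CPM. Of 11 cholesterol and lipid synthesis genes 8 were highest in EV replicate 3, where the desaturase gene SCD was at 242 CPM, with 31.1 and 61.2 CPM in EV replicates 1 and 2. Of 12 matrix genes 7 were highest there, and the collagen gene COL5A1 was at 7.25, 27.7 and 92.6 CPM, with counts that share a divisor of 2.

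Heat shock and chaperonin genes were highest in EV replicate 1 in 10 of 12 and in EV replicate 3 in none, with medians of 0.45, 0.04 and -0.49. HSPD1, the mitochondrial chaperonin, was at 689, 293 and 181 CPM and TCP1, a subunit of the cytosolic chaperonin, at 703, 358 and 171 CPM. HSPA8, the constitutive HSP70, was even, at 3825, 3869.8 and 3517 CPM. The list's median GC content was 44.4%, below that of all genes, and its medians after the GC trend was subtracted were 0.27, -0.01 and -0.44.

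**Figure D5:**
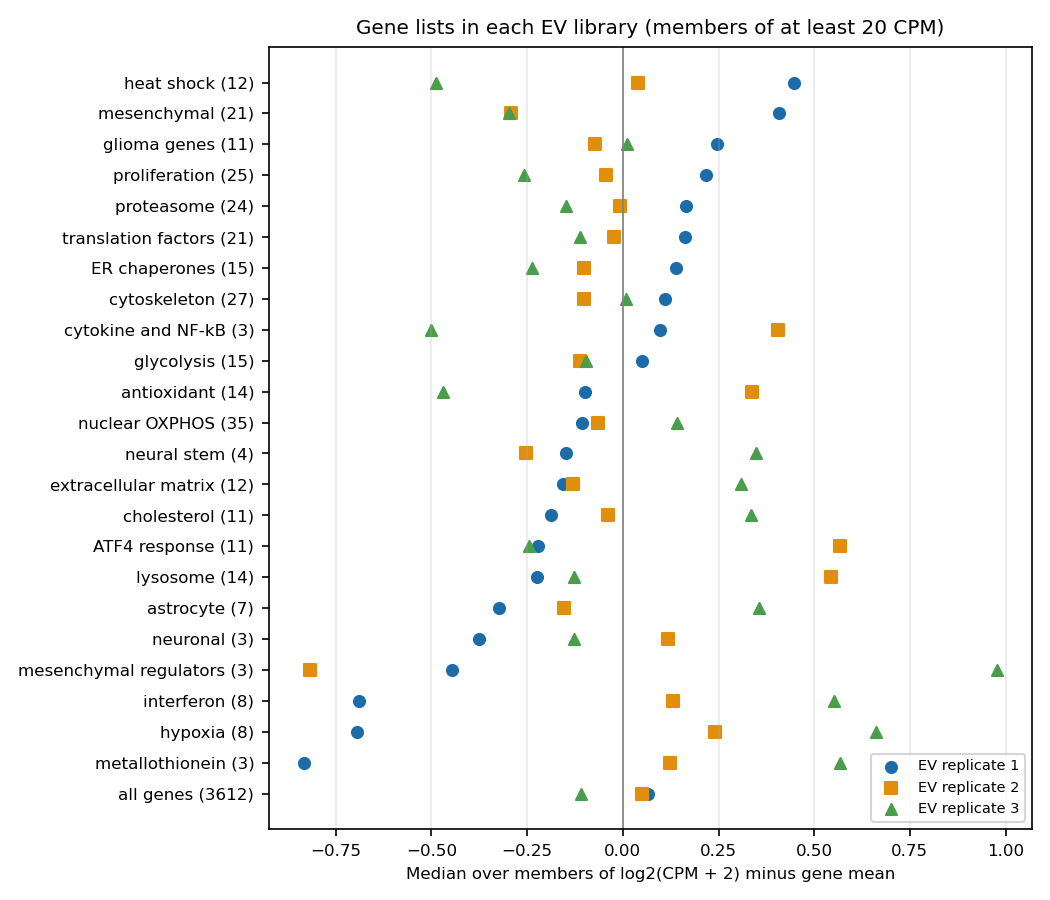
Median over each list's members of at least 20 CPM (number in brackets) of log2(CPM + 2) minus the gene's mean over the 3 EV libraries, 1 point for each library. The antioxidant, ATF4 and lysosome lists have EV replicate 2 farthest right, and the interferon, hypoxia and metallothionein lists have EV replicate 3 farthest right and EV replicate 1 farthest left.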

How the data were processed

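Poly(A) RNA of SNB19 cells was purified on oligo-dT beads and made into libraries with PCR barcoding and cDNA-PCR kits of Oxford Nanopore, per the labels' protocols. The authors deposited 1 table of raw counts for each gene symbol. The build was GRCh38, per the submitters' processing notes, and no source used here names the aligner, the counter, its strand setting or its annotation. Amplification before sequencing and the missing molecular identifiers mean that floors cover counting error only. Counts of 488 of 12297 genes read in at least 6 of 15 libraries share a divisor between 2 and 6 over all 15, and the reason is not known. They include 41 of the 3612 genes of at least 20 CPM and 9 of the 337 variable ones.

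Libraries were assigned to EV by their titles. CPM was taken over the column total. A gene was called variable when its highest library was at least 4-fold its lowest on CPM + 2, among genes of a mean of at least 20 CPM. With 1 group there is no test between groups and no p-value. GENCODE release 29 gave length, GC content and overlaps for 18112 (98.0%) symbols, from 1 representative transcript each. The text names the 20 most abundant genes, the 20 of largest SD of log2(CPM + 2), the 10 of smallest SD at 200 CPM or above, and members of the lists, the 8 most abundant or those that varied at least 4-fold. A few genes that this rule or the lists would name are not reported here, and they remain in counts and sums. ID1 and ID4, and some low list members, were named after their values were seen. Members and lists were chosen with earlier results of these data known. The counting of variable genes was also run on simulated data, and no result of that run is given or used here. TMM factors came from edgeR 4.0.16 in R 4.3.3, and the rest was computed in Python 3.11.15 with pandas 2.3.3, scipy 1.17.1 and statsmodels 0.14.6. The GC trend was a lowess with a fraction of 0.5. Alternatives tried were TMM, pseudocounts of 0.5 and 10, minimum levels of 5 and 50 CPM and none, levels per kilobase, each library left out, genes with a shared divisor left out, and the GC trend subtracted.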

Additional observations from a re-analysis of the deposited data

How the results depend on the processing

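The count of 337 variable genes depended on the settings. With a pseudocount of 10 it was 186, with a minimum mean of 5 CPM it was 962 of 7443 genes, with 50 CPM 147 of 2018 genes and with no minimum 1384 of 15236 genes. With 1 library left out it ran from 72 (without EV replicate 1) to 277 (without EV replicate 2), and such a range spans only 2 libraries. It stayed within 1.5 times under TMM (307), a pseudocount of 0.5 (391), the GC correction (265), and without genes whose counts share a divisor over all 15 libraries (328) or over the 3 EV libraries (261). The share of the 100 most abundant genes was 54.5% on levels per kilobase, against 45.7% on CPM, and 44.2% to 47.3% with 1 library left out. Summed levels of the gene lists moved by less than 1 SD under TMM. With 1 library left out a mean of 3 cannot move by 1 SD, and the sum of the mesenchymal regulators was 119.9 CPM without EV replicate 3, against 187 CPM. Most list medians per library kept their sign under the GC correction, and several did not. In EV replicate 3 the mesenchymal median went from -0.30 to 0.04 and the lysosome median from -0.13 to 0.10. Of the 20 most abundant genes, 7 were outside the 20 highest per kilobase. The causes were not tested. Depth limits genes under about 2 CPM per library, where 3 counts or fewer stand behind a value. No paired analysis was possible because 1 group was described and no comparison between groups was made.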
